A study of Mus musculus with 15 samples.

Results

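LSZ2 and LSZ4 are mouse cell lines of non-small cell lung cancer, and shSiva1 is a short hairpin RNA directed against Siva1. The comparison holds 11 of the 15 arrays of the study: 4 from cells with shSiva1 (2 of LSZ2 and 2 of LSZ4) and 7 from cells with a control hairpin. The controls were 3 arrays of shGFP (1 of LSZ2 and 2 of LSZ4) and 4 arrays of shLacZ (2 of each line), whose targets, a jellyfish and a bacterial gene, are foreign to the mouse. The other 4 arrays came from cells with shSiva2, another Siva hairpin, and entered only where both Siva hairpins are set side by side. Cells were infected with virus made in 293T cells. Cells with shGFP, shSiva1 or shSiva2 were selected in puromycin for 3 days, shLacZ cells were not, and RNA was collected 2 days after plating at subconfluent density. The labels name the vector pLKO.1 for shGFP, LL37 for shLacZ and pLKO TRC2.0 for both Siva hairpins. The 7 control arrays shared 1 slide and the 8 shSiva arrays a different one, so that Siva hairpin, vector and slide cannot be told apart in any comparison with the controls.

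Siva1 encodes a small zinc-binding protein that was first described as a partner of the death receptor family member CD27, and its gene is a direct target of the tumour suppressor p53. p53 activates genes of cell cycle arrest, DNA repair and cell death, and Siva1 has been counted among its pro-apoptotic targets. The study asks what Siva does in tumour cells. A hairpin RNA is processed into a small interfering RNA that lowers the transcript it pairs with, and it can also act on other transcripts, which is why studies use more than 1 hairpin per gene.

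The 75th percentile signal of the 11 arrays ran from 354 to 871 intensity units and was lowest on the LSZ4 shGFP arrays. Spots well above background made up 49.0% to 60.6% of an array, and 0 spots were saturated. Levels are given as log2 signal less the 75th percentile of the array, so that 0 is the level of that percentile. Differences are log2 changes with the standard error (SE) of a fit with limma over the 11 arrays, with line as a term, and a gene was called at a Benjamini-Hochberg adjusted p under 0.05 over 22570 genes. The median change of all genes was -0.18, and spike-in RNA added at equal amounts differed by -0.17 on the same scale. The defining epithelial genes Krt8, Krt18, Krt19 and Cdh1 were above background on all 11 arrays, and Epcam was above background on 6 of 7 control and all 4 shSiva1 arrays. Of the lung markers, Nkx2-1 and Sftpc were above background on 0 of the 11 arrays, Sftpb on 7 control and 1 shSiva1 arrays and Scgb1a1 on 4 control and 1 shSiva1 arrays.

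The transcript that shSiva1 targets was low on each shSiva1 array. Siva1 was measured by 2 probes, and the brighter one, which was used, has this sequence, the transcript stretch whose loss the next sentences report.
Siva1 probe: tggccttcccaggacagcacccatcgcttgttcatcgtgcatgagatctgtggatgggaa
The deposited annotation places it at chr12:113885242-113886093 on the plus strand of the mm9 build, and since the 60 bases span 852 bases of the genome, the probe crosses an exon junction. In LSZ2 the Siva1 level was 5.53 with shGFP and 5.52 and 5.83 with shLacZ, against 2.98 and 3.29 with shSiva1. In LSZ4 it was 6.75 and 6.75 with shGFP and 5.50 and 6.22 with shLacZ, against 2.56 and 3.40 with shSiva1. All 4 shSiva1 arrays lay below every control array, with a mean of 3.06 ± 0.38 (SD, n = 4) against 6.01 ± 0.56 (SD, n = 7). Siva1 fell by 2.93 (SE 0.28, limma adjusted p = 1.87e-05), to 13.2% of control. An exact two-sided permutation of hairpins within each line gave p = 0.00667, the smallest that its 150 arrangements allow. The other probe, at chr12:113887275-113887334, gave a mean of 5.79 ± 0.54 (SD, n = 7) over the control arrays and of 3.09 ± 0.40 (SD, n = 4) over the shSiva1 arrays. The fall was 2.49 in LSZ2 and 3.32 in LSZ4. Against the same controls, shSiva2 changed Siva1 by -2.09, and the direct test over the 8 shSiva arrays put shSiva1 lower than shSiva2 by 0.84 (SE 0.24, limma adjusted p = 0.0314).

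**Figure D1:**
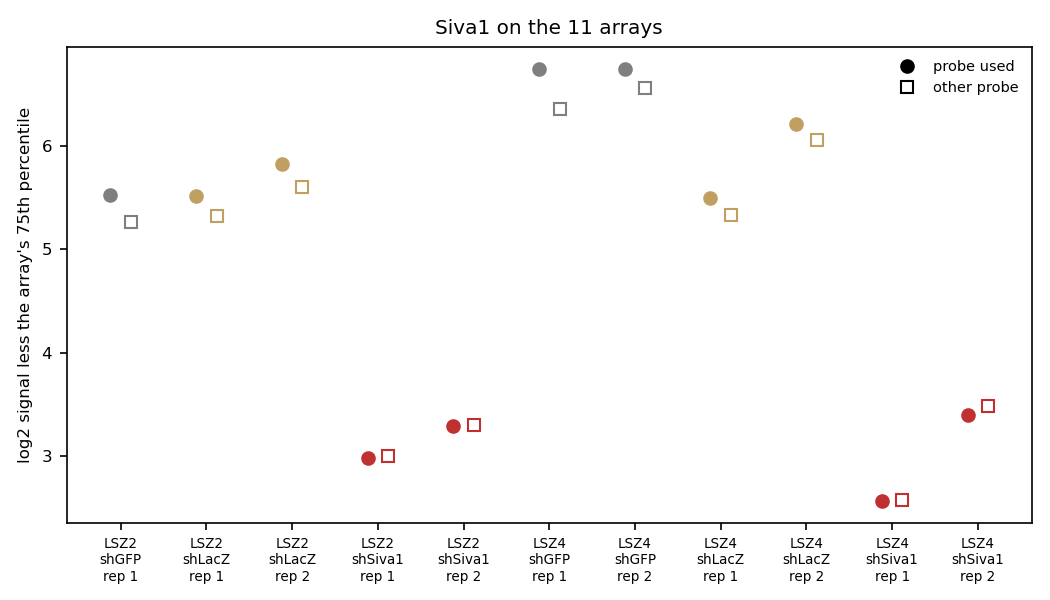
Siva1 on each of the 11 arrays. The vertical axis is the log2 signal less the 75th percentile of the array, filled circles are the probe used and open squares the other probe, and colours mark the hairpin. The shSiva1 arrays lie between 2.56 and 3.49 on both probes and every control array lies above 5.

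The differences called between shSiva1 and control arrays went well beyond Siva1. Of 22570 genes, 4294 were called (19%), 2053 higher (9.1%) and 2241 lower (9.93%), and 1357 of the rises and 712 of the falls were at least 2-fold. Of the called rises, 511 were above background on fewer than 4 control arrays, 185 of them on none, and so passed the filter through their shSiva1 arrays. With probes required above background on all 11 arrays, 39.5% of calls were higher, against 47.8% here. The leading rises included the matricellular genes Ccn5 and Ccn4, the keratin gene Krt17 and the protease inhibitor gene Timp3, and the leading falls included the lipid enzyme gene Degs2, 3 cytochrome P450 genes and Ly6d. On 3619 of the called genes, all 4 shSiva1 arrays lay beyond every control array of their line. Such complete separation held above the controls for 2049 genes (9.08% of those tested) and below them for 2336 (10.4%). The count of calls was 7236 without LSZ4 shLacZ replicate 1, 2805 without LSZ2 shSiva1 replicate 1 and 2829 and 2708 without LSZ4 shSiva1 replicates 1 and 2. The labels do not say that replicate arrays came from separate cultures, so p-values measure the spread between these samples only.

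Among the 15 largest rises were secreted proteins of the extracellular matrix. Ccn5 and Ccn4 are matricellular CCN proteins, known as targets of Wnt signalling, Smoc2 is a calcium-binding matricellular protein, and Timp3 is a matrix-bound inhibitor of metalloproteinases. Ccn5 had control levels from -7.11 to -5.96 with a median of -6.71, and shSiva1 levels of -1.76 and -0.91 in LSZ2 and 0.87 and 0.87 in LSZ4. It was above background on 0 of the 7 control arrays and on all 4 shSiva1 arrays, and so passed the filter through the latter. Its rise is thus a bound, at least 24.4-fold. The limma fit, against control signals at background, gave an adjusted p of 8.26e-07, which does not test the bound. Ccn4 ran from -7.52 to -6.38 with a median of -6.92 in control cells and read -1.21, -1.0, -0.06 and -0.92 with shSiva1. The bound on its rise was at least 16.5-fold (adjusted p of the limma fit = 3.44e-08, which does not test the bound). The control and shSiva1 arrays of both CCN genes did not overlap. The rule that picked the 15 rises required all 4 shSiva1 arrays above every control of their line, which favours this. Timp3 was measurable in part of the controls, from -6.39 to -2.87 with a median of -4.38, and read 1.44 and 1.85 in LSZ2 and 2.66 and 2.15 in LSZ4 with shSiva1. It rose by 6.29 (SE 0.60, adjusted p = 1.7e-05), and its lowest controls were the LSZ4 shGFP arrays. Smoc2 rose by 5.72 (SE 0.22, adjusted p = 7.99e-08) from a control median of -3.41, and its shSiva1 levels were near 0 in LSZ2 (-0.31 and 0.31) and 3.01 and 3.34 in LSZ4. It was above background on 4 of the 7 control arrays, and its LSZ2 controls read -5.43, -5.54 and -5.45. Its size thus rests partly on signals near background.

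The other leading rises were intermediate filament, cytoskeletal, receptor and lipid-handling genes. Krt17, a keratin of basal and injured epithelium, ran from -7.48 to -5.38 with a median of -6.43 in control cells and read -1.57 and -0.96 in LSZ2 and 0.56 and 1.02 in LSZ4 with shSiva1. No control array measured it above background, and the bound on its rise was at least 24.3-fold. The adjusted p of the limma fit was 3.31e-07, which does not test the bound. Cd40, a receptor of the tumour necrosis factor receptor family, was likewise above background on 0 control arrays (-7.47 to -5.83, median -6.87) and on 4 shSiva1 arrays (-2.04, -1.56, -1.05 and -0.68). Its bound was at least 11.4-fold, and the adjusted p of the limma fit was 9.75e-08. Dbn1, which encodes the actin-binding protein drebrin, and Syt13, of the synaptotagmin family, had bounds of at least 16.2-fold and 13.1-fold. Sdc3, a heparan sulfate proteoglycan of the cell surface, rose by 5.55 (SE 0.45, adjusted p = 4.79e-06), from a control median of -3.95 to 1.52 and 2.16 in LSZ2 and 2.05 and 2.63 in LSZ4. Chrna1, a subunit of the muscle acetylcholine receptor, rose by 5.93 and Cd1d1, which presents lipid antigens, by 5.15. On other probes that passed the filter the rises were smaller, 3.53 for Chrna1 and 2.27 and 4.53 for Cd1d1. Pitpnm3 (6.05), Myom2, a protein of the sarcomere (5.24), Ccbe1, a secreted matrix protein (5.10), and Lce1g, of the late cornified envelope family (5.08), completed the 15. The other probes of Ccbe1 rose by 1.58 and 3.20. Pitpnm3, Myom2 and Lce1g were above background on 1 of the 7 control arrays and Chrna1 and Ccbe1 on 3, so these values and their order rest on control signals largely at background. Myom2 had a control median of -6.95 but read -2.72 on LSZ4 shLacZ replicate 2, and all 4 of its shSiva1 arrays (-1.59, -1.20, -1.05 and -0.95) lay above that array.

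The 15 largest falls began from levels that every control array measured. The rule that picked them required all shSiva1 arrays below every control of their line, which favours separation of the groups. Degs2, an enzyme of sphingolipid synthesis that makes phytoceramide, ran from 0.20 to 3.02 with a median of 1.93 in control cells and read -1.22 and -0.64 in LSZ2 and -5.07 and -4.87 in LSZ4 with shSiva1. It fell by 4.88 (SE 0.45, limma adjusted p = 1.44e-05), to 3.4% of control, and the arrays of control and shSiva1 cells did not overlap. Cytochrome P450 genes, which oxidise fatty acids and foreign compounds, made up 3 of the 15: Cyp2c65 fell by 4.24, Cyp2c66 by 3.63 and Cyp2s1 by 3.50. Cyp2c65 and Cyp2c66 are close paralogs, and cross-hybridisation between their probes was not tested. Apoc2, the cofactor of lipoprotein lipase, was among the brightest genes in control cells (6.61 to 8.01, median 7.70) and read 5.88 and 6.32 in LSZ2 and 2.89 and 3.34 in LSZ4. It fell by 3.04 (SE 0.41, adjusted p = 0.000253), with non-overlapping arrays in each line, as that rule required. Ffar4, which senses long-chain fatty acids, fell by 3.39 (SE 0.25).

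Surface and secreted proteins of mucosal and squamous epithelium made up much of the rest. Ly6d ran from 4.74 to 7.55 with a median of 6.18 in control cells and read 2.58 and 3.18 in LSZ2 and 1.80 and 1.79 in LSZ4 with shSiva1. It fell by 3.86 (SE 0.47, adjusted p = 0.000119), and Slurp1, a secreted relative in the same Ly6 family, fell by 3.04 (SE 0.33, adjusted p = 4.53e-05). Il1rn, the natural antagonist of the interleukin-1 receptor, held a narrow control range of -0.38 to 0.54 around a median of -0.07 and read -3.1 and -2.93 in LSZ2 and -4.54 and -4.19 in LSZ4. It fell by 3.68 (SE 0.31, adjusted p = 6.08e-06) with no overlap, which the rule for picking these genes favours. Aqp8, a water channel of gut epithelium, fell by 3.91 (SE 0.45). Lrrc26, an auxiliary subunit of a calcium-activated potassium channel in secretory cells, fell by 4.06 (SE 0.35). Lgals6, a galectin nearly identical to Lgals4, fell by 3.28 (SE 0.40), and cross-hybridisation between these was not tested. Tcf23, a helix-loop-helix factor (a fall of 4.06), Tmigd1 (3.71) and the glycine transporter gene Slc6a9 (2.99) were the others.

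**Figure D2:**
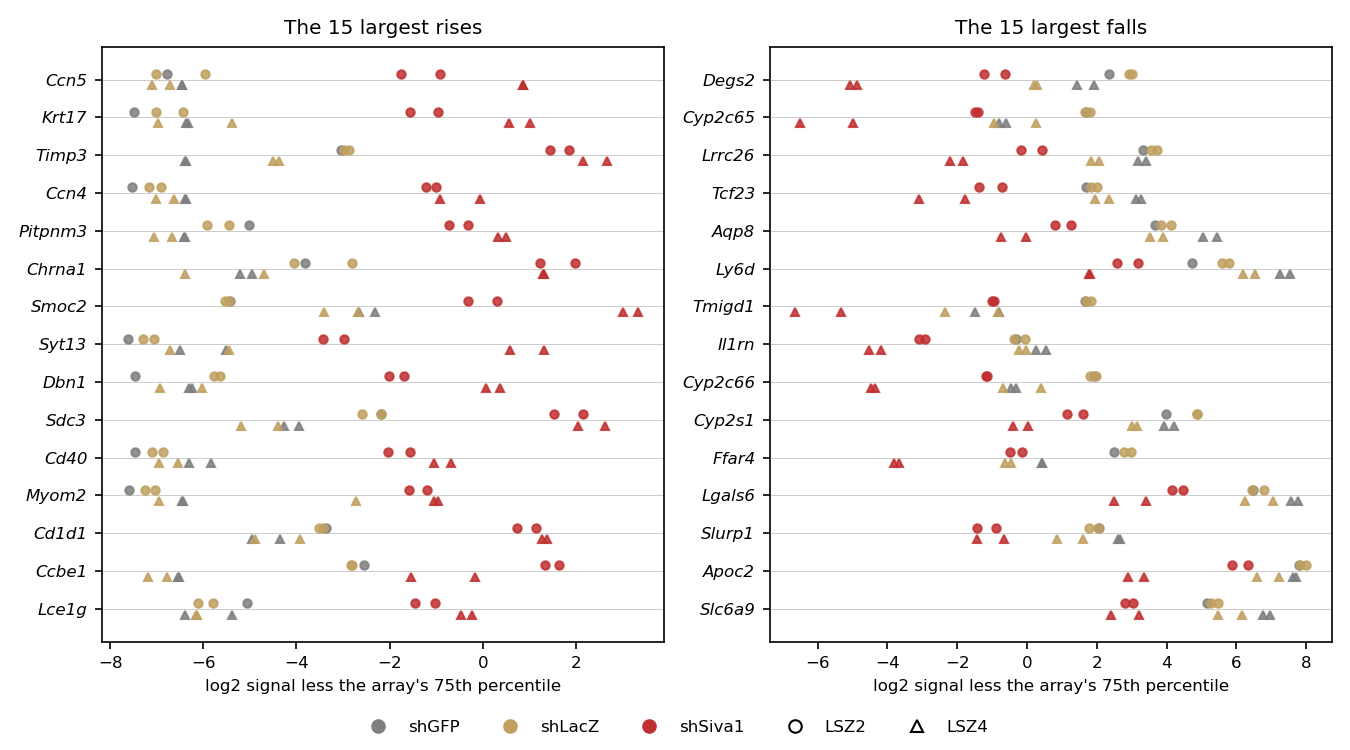
The 15 largest rises and the 15 largest falls with shSiva1, by array. The horizontal axis is the log2 signal less the 75th percentile of the array, each point is 1 array, colours mark the hairpin, and circles are LSZ2 and triangles LSZ4. In each gene the shSiva1 points of a line lie beyond all control points of that line, since the rule for naming these genes required it.

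Genes known to be induced by interferon were often higher. These genes are switched on when the receptors for viral RNA or for interferons signal, and their products block viral replication and present antigen. Of 39 listed genes, 30 were measured, 14 of which rose and 1 fell, at a background of 9.1% and 9.93% of all genes. The median of the 30 was 0.63, which is 0.81 above that of all genes. The list was written with earlier results of these data known, and 8 of the 30 were above background on fewer than 4 control arrays and so passed the filter through their shSiva1 arrays. Ifit3, whose product binds viral RNA complexes, ran from -7.26 to -5.05 with a median of -6.61 in control cells and read -0.90 and -0.75 in LSZ2 and -1.41 and -2.34 in LSZ4 with shSiva1. It rose by 4.67 (SE 0.22, limma adjusted p = 1.7e-07) with no overlap between the groups, and 1 of the 7 control arrays measured it above background. Igtp, an interferon-inducible GTPase, went from a control median of -4.52 to levels of -1.24 and -0.79 in LSZ2 and -1.56 and -1.74 in LSZ4, a rise of 3.31 (SE 0.19, adjusted p = 4.41e-07). Usp18, which removes the ubiquitin-like protein ISG15, rose by 2.38 (SE 0.18, adjusted p = 2.28e-06). Among other members, picked here after their values were seen, Oas1a rose by 3.26, Xaf1 by 3.1, Gbp2 by 3.09 and the RNA sensors Ifih1 by 2.79 and Ddx58 by 2.31. Dhx58, a regulator of those sensors, fell by 0.63. The falls numbered 3 without LSZ4 shLacZ replicate 1 and 0 without LSZ4 shGFP replicate 2, LSZ2 shLacZ replicate 2, LSZ4 shLacZ replicate 2 or either LSZ4 shSiva1 array. With probes required above background on all 11 arrays, 4 members were called higher.

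Promoters of such genes often hold an interferon response element, 2 copies of GAAA set apart by 2 bases. The letters GAAANNGAAA were searched on both strands in the 250 bases before the start of each gene in the RefSeq table (GRCm38.p6). They occurred in 5 of the 10 promoters matched among the 14 members that rose (50%), in 9 of 21 matched among the measured members (42.9%) and in 3.46% of 27025 genes. Both promoters shown belong to members named above, on the plus strand of their chromosomes, 5' to 3', with the match in capitals (TTTCNNTTTC is the same match on the other strand).
Ifit3 chr19:34583279-34583528: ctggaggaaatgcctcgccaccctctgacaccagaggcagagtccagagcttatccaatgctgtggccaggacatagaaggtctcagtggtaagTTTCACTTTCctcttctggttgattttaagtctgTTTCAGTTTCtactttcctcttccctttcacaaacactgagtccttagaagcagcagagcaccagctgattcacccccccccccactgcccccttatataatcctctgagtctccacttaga
Igtp chr11:58199306-58199555: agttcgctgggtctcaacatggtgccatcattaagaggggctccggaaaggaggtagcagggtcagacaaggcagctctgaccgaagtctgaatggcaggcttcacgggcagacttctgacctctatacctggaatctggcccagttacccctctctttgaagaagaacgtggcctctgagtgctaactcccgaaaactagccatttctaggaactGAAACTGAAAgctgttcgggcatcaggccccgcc
The Ifit3 window holds 2 matches and the Igtp window 1. A match describes the letters in that window and does not show that a factor binds there.

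Genes of antigen processing and inflammation also held more rises than falls. Over all genes tested, 9.1% were called higher and 9.93% lower. Of 19 genes of antigen processing and MHC class I, all measured, 6 rose and 1 fell, and 2 of the 19 were above background on fewer than 4 control arrays. The 1 fall was called with all arrays and without LSZ4 shLacZ replicate 1 or LSZ2 shSiva1 replicate 2, and was lost without any other single array. Psmb8, a subunit that converts the proteasome into the immunoproteasome, was above background on 0 control arrays (-6.57 to -5.54, median -6.32) and read -2.66, -2.30, -2.65 and -2.23 with shSiva1. The bound on its rise was at least 5.20-fold. The adjusted p of the limma fit was 4.41e-07, which does not test the bound. Psmb9, another immunoproteasome subunit, rose by 2.02 (SE 0.24) and the non-classical class I gene H2-M3 by 3.23 (SE 0.23). Of 30 measured NF-kB targets, chemokines and cytokines, 12 rose and 2 fell (5 without LSZ4 shLacZ replicate 1), and 2 of the 30 were above background on fewer than 4 control arrays. The monocyte chemokine Ccl2 ran from -1.51 to 1.45 with a median of 1.04 in control cells and read 2.25 and 2.43 in LSZ2 and 4.30 and 3.56 in LSZ4 with shSiva1. It rose by 3.06 (SE 0.22, adjusted p = 1.78e-06), and the related chemokine gene Ccl7 rose by 3.79 (SE 0.19, adjusted p = 2.37e-07). Csf2, which encodes the growth factor GM-CSF, rose by 2.92 (SE 0.17). Of 13 measured blood and immune markers 1 was called, S100a8, with a rise of 2.97 (SE 0.32). It was above background on 3 of the 7 control arrays and so passed the filter through its shSiva1 arrays. In this list 4 of the 13 were above background on fewer than 4 control arrays. The summed level of the 6 defining blood markers, in multiples of the 75th percentile signal, was 12.2 to 15.4 in control and 11 to 13.7 in shSiva1 cells. In RNA of whole cultures, fewer cells of a kind and less RNA per cell cannot be told apart.

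Matrix proteases and their inhibitors had the highest median of the 25 lists. The counts below stand beside 9.1% of all genes called higher and 9.93% called lower. Of 27 measured matrix proteases and inhibitors, 14 rose and 1 fell, with a median 0.96 above that of all genes, and 5 of the 27 were above background on fewer than 4 control arrays. Beside Timp3, both plasminogen activators rose. Plat ran from -2.33 to -1.38 with a median of -1.96 in control cells and read 0.80 and 1.21 in LSZ2 and 1.99 and 2.00 in LSZ4, a rise of 3.37 (SE 0.29, adjusted p = 7.03e-06). Plau rose by 2.33 (SE 0.23, adjusted p = 2.3e-05). Of 34 measured extracellular matrix and matricellular genes, 13 rose and 3 fell, and 5 of the 34 were above background on fewer than 4 control arrays. The falls numbered 5 without LSZ4 shLacZ replicate 1 and 1 without either LSZ4 shGFP array, LSZ2 shLacZ replicate 2, LSZ4 shLacZ replicate 2, LSZ2 shSiva1 replicate 1 or either LSZ4 shSiva1 array. Fn1, which encodes fibronectin, ran from 1.70 to 3.18 in control cells with a median of 2.42 and read 5.61, 6.01, 5.67 and 6.12 with shSiva1, a rise of 3.35 (SE 0.23, adjusted p = 1.46e-06) without overlap. Of 14 measured mesenchymal genes, 6 rose and 0 fell, among them Snai2, a repressor of epithelial genes (1.36, SE 0.15), and Cdh2, which encodes N-cadherin (1.54, SE 0.20). Epithelial genes went both ways, with 4 of 36 higher and 5 lower, not far from the shares of all genes. The rises numbered 1 or 2 without LSZ2 shSiva1 replicate 2 or either LSZ4 shSiva1 array. The falls numbered 10 without LSZ4 shLacZ replicate 1 and 3 without LSZ2 shLacZ replicate 2, LSZ2 shSiva1 replicate 1 or LSZ4 shSiva1 replicate 2. The tight junction gene Cldn3 fell by 1.34 (SE 0.25) and the epithelial factor gene Grhl2 by 1.0 (SE 0.20), whereas Krt17 was higher and Epcam rose by 0.76 (adjusted p = 0.0177). With normexp background correction Grhl2 was not called (adjusted p = 0.579). Cdh1 changed by -0.51 (adjusted p = 0.107) and was not called. Of the defining fibroblast markers Col1a1 rose by 2.20. It was above background on 1 control array and so passed the filter through its shSiva1 arrays. Col1a2 (0.01) and Col3a1 (0.24) were not called, and Dcn and Pdgfra were above background on 0 arrays. The summed level of the 5 was 0.118 to 0.261 in control and 0.188 to 0.332 in shSiva1 cells. The endothelial list had 0 rises and 2 falls among 5 measured genes, neither of them called against shGFP or shLacZ alone. Its falls numbered 0 or 1 without any single array other than LSZ4 shLacZ replicate 1. Its 4 defining markers summed to 4.75 to 14.6 in control and 4.07 to 8.52 in shSiva1 cells. The part of these markers in the results was not tested.

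Genes of gut differentiation held more falls than rises, where 9.93% of all genes were called lower and 9.1% higher. Of 26 measured gut and stomach differentiation genes, 11 fell and 4 rose. The falls were led by Cyp2c65, Lrrc26 and Cyp2c66, and the stomach protease gene Ctse rose by 2.76 (SE 0.22, adjusted p = 4.59e-06), from a control median of 0.59 to 3.44, 3.80, 3.18 and 3.46. The falls numbered 6 without LSZ2 shSiva1 replicate 1 and 7 without LSZ4 shSiva1 replicate 1 or LSZ2 shLacZ replicate 2, and the rises 2 without either LSZ4 shSiva1 array. Of 21 measured lung alveolar and airway genes, 5 rose and 5 fell. The falls numbered 9 without LSZ4 shLacZ replicate 1 and 2 or 3 without any other single array but LSZ4 shGFP replicate 1, and the rises 3 without LSZ4 shSiva1 replicate 2. Cbr2, a carbonyl reductase abundant in lung, fell by 2.76 (SE 0.31) on the probe used, while another probe of it changed by -0.83. Sox9, a factor of distal lung progenitors, rose by 2.19 (SE 0.31), from a control median of -2.46 to 0.55, 0.97, 0.25 and 0.57. Lpcat1, an enzyme of surfactant lipid synthesis, rose by 1.17 (SE 0.19), and by 0.60 on another probe. The 5 defining lung markers summed to 0.121 to 0.423 in control and 0.087 to 0.182 in shSiva1 cells, with Sftpb, the surfactant protein B gene, called lower.

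**Figure D3:**
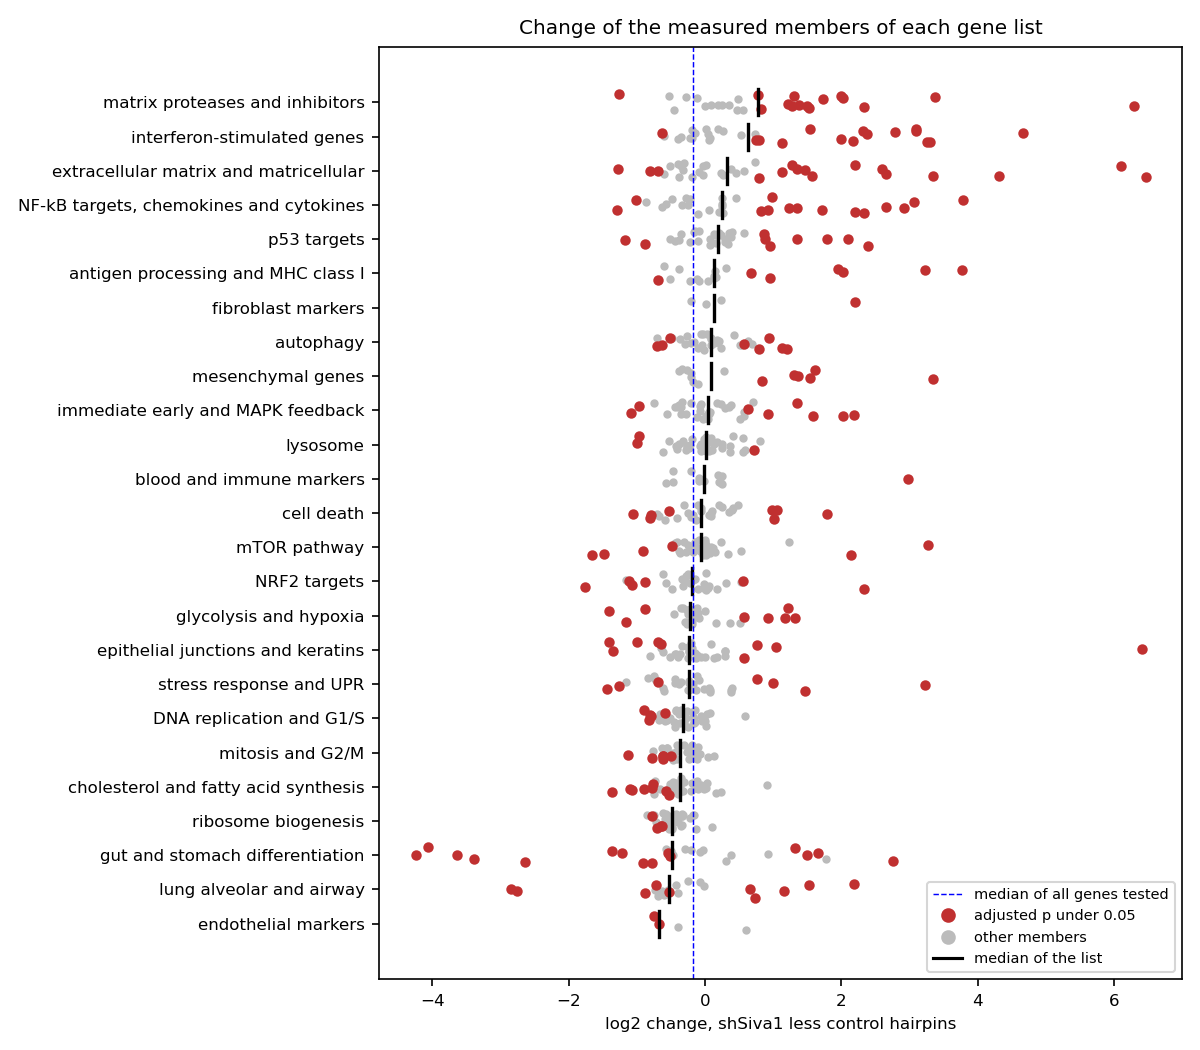
Change of each measured member of the 25 gene lists. The horizontal axis is the log2 change of shSiva1 less control, each point is 1 gene, red points had an adjusted p under 0.05, black bars are list medians and the dashed line is the median of all genes. Matrix proteases and interferon-stimulated genes have the highest medians, 0.96 and 0.81 above that of all genes.

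Of 32 measured p53 targets, 7 rose and 2 fell, beside 9.1% and 9.93% of all genes. Gadd45a, which restrains the cell cycle after stress, ran from -1.08 to -0.42 with a median of -0.90 in control cells and read 1.08, 1.59, 1.71 and 1.77 with shSiva1, a rise of 2.40 (SE 0.17, adjusted p = 1.94e-06) without overlap. Plk2, a stress-induced kinase, rose by 0.86 (SE 0.15) and the sulfatase gene Sulf2 by 0.88 (SE 0.20). Without LSZ4 shSiva1 replicate 1, 4 p53 targets were called higher. The falls of this list numbered 0 without any 1 of LSZ4 shGFP replicates 1 and 2, LSZ2 shLacZ replicates 1 and 2, LSZ4 shLacZ replicate 2, LSZ2 shSiva1 replicate 1 and LSZ4 shSiva1 replicates 1 and 2, and 1 without LSZ2 shGFP replicate 1. Of 32 measured cell death genes, 4 rose and 4 fell. The rises numbered 1 and 2 without LSZ4 shSiva1 replicates 1 and 2. The falls numbered 7 without LSZ4 shLacZ replicate 1 and 0 to 2 without either LSZ4 shGFP array, LSZ2 shLacZ replicate 2, LSZ4 shLacZ replicate 2, LSZ2 shSiva1 replicate 1 or either LSZ4 shSiva1 array. The effector caspase gene Casp6 rose by 1.05 (SE 0.15, adjusted p = 0.000323). Cflar, an inhibitor of caspase-8, rose by 1.02 (SE 0.24) on the probe used while another probe of it changed by -0.11, and Bad, a pro-apoptotic Bcl-2 relative, fell by 1.05 (SE 0.27). Without LSZ4 shSiva1 replicate 1 neither Cflar nor Bad was called.

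The pathway of mTOR, the kinase that couples nutrients to growth, gave 2 rises and 4 falls among 39 measured genes, near or below the 9.1% and 9.93% of all genes. The falls numbered 2 without either LSZ2 shSiva1 array or LSZ4 shSiva1 replicate 2. Ddit4l, an inhibitor of mTOR complex 1, ran from -2.54 to -1.74 with a median of -2.05 in control cells and read 1.07, 1.47, 1.35 and 1.03 with shSiva1. It rose by 3.27 (SE 0.16, adjusted p = 2.37e-07) without overlap. Sesn3, a sestrin that restrains the same complex, rose by 2.14 (SE 0.17, adjusted p = 3.93e-06), and Akt1s1, which encodes the complex's subunit PRAS40, fell by 1.66 (SE 0.28, adjusted p = 0.00136). Of 37 measured autophagy genes, 5 rose (3 without LSZ2 shGFP replicate 1, LSZ2 shLacZ replicate 1, either LSZ2 shSiva1 array or LSZ4 shSiva1 replicate 2) and 3 fell (1 without LSZ4 shSiva1 replicate 1). Among the rises were Map1lc3a, a relative of the autophagosome marker LC3, by 1.21 (SE 0.24), and the autophagy receptor gene Optn by 0.94 (SE 0.16). Wipi1 rose by 1.14 (SE 0.16), and by 0.70 on another probe. Of 39 measured lysosome genes, 1 rose and 2 fell, the falls being those of Scarb2 and Ctsa, and the other Ctsa probe changed by 0.06. Neither fall was called without LSZ4 shSiva1 replicate 1, nor the rise without replicate 2 of either line's shSiva1 arrays.

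The called genes of growth were all lower, in shares near or above the 9.93% of all genes. No test compared these shares. None of the 38 measured genes of DNA replication and G1/S, of the 34 of mitosis and of the 36 of ribosome biogenesis was called higher, and 5, 6 and 4 of them were called lower, beside 9.93% of all genes. The median changes of these lists were -0.33, -0.36 and -0.48, beside -0.18 for all genes. Cyclin D1 (Ccnd1) fell by 0.90 (SE 0.26, adjusted p = 0.0299), and the phosphatase gene Cdc25b, which starts mitosis, by 1.12 (SE 0.26, adjusted p = 0.0107). The counts moved with single arrays. Without LSZ4 shLacZ replicate 1 the replication and ribosome lists had 13 and 9 falls, and without LSZ2 shSiva1 replicate 1 or either LSZ4 shSiva1 array they had 0 or 1. Over all single arrays left out the falls ran from 0 to 13 for replication, 2 to 8 for mitosis and 0 to 9 for ribosome biogenesis. Ccnd1 was not called without any 1 of 6 arrays, the highest adjusted p being 0.123. Of 37 measured genes of cholesterol and fatty acid synthesis, 8 fell and 0 rose. Scd1, the desaturase that makes oleate, ran from 4.54 to 4.95 with a median of 4.71 in control cells and read 3.23, 3.69, 3.89 and 3.66, a fall of 1.10 (SE 0.16, adjusted p = 0.000491). Insig1, the sterol-regulated brake on the pathway, fell by 1.07 (SE 0.19) and the sterol enzyme gene Nsdhl by 0.76 (SE 0.14). The falls numbered 14 without LSZ4 shLacZ replicate 1 and 4 without LSZ2 shLacZ replicate 2, LSZ4 shLacZ replicate 2, LSZ2 shSiva1 replicate 1 or either LSZ4 shSiva1 array.

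The counts of the next lists stand beside 9.1% of all genes called higher and 9.93% called lower, and no test compared them. Of 34 stress response genes, 4 rose and 3 fell (8 without LSZ4 shLacZ replicate 1 and 5 without LSZ2 shSiva1 replicate 2), near those shares. Among them were Vldlr, a lipoprotein receptor (a rise of 3.23, SE 0.29), and Nupr1 (1.47, SE 0.16). The endoplasmic reticulum chaperone gene Hyou1 fell by 1.44 (SE 0.23). Of 39 immediate early and MAPK feedback genes, 6 rose and 2 fell (5 without LSZ4 shLacZ replicate 1 and 1 without LSZ4 shSiva1 replicate 1), with the phosphatase gene Dusp1 higher by 2.19 (SE 0.17) and Jun by 2.03 (SE 0.22). Of 28 NRF2 targets, 2 rose and 4 fell. The falls numbered 7 without LSZ4 shLacZ replicate 1, and the rises 1 without LSZ2 shGFP replicate 1, any 1 of the 4 LSZ2 shLacZ and LSZ2 shSiva1 arrays or LSZ4 shSiva1 replicate 2. Gstm2, a glutathione transferase, rose by 2.34 (SE 0.21), whereas the quinone reductase gene Nqo1 fell by 1.76 (SE 0.24). Of 31 glycolysis and hypoxia genes, 5 rose (3 without either LSZ4 shSiva1 array) and 3 fell. Pfkfb3 was higher by 1.21 (SE 0.14), and by 0.66 on another probe, and the hypoxia-induced hydroxylase gene Egln3 was lower by 1.41 (SE 0.21).

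The comparison of the lines asks whether shSiva1 did the same in both. All 4294 called genes changed with the same sign in LSZ2 and LSZ4, and 3077 of them changed more in LSZ4, with a median size of 0.84 in LSZ2 and 1.12 in LSZ4. These genes were called on the mean of both lines, which favours the same sign. Tested alone, LSZ2 gave 1247 calls (5.53%), 1002 higher (4.44%) and 245 lower (1.09%), and LSZ4 gave 2982 (13.2%), 1477 higher (6.54%) and 1505 lower (6.67%). These counts do not test whether the lines differ. A test of the difference called 3 genes of 22570 (0.0133%), 2 with the larger change in LSZ4 (0.00886%) and 1 with the lower (0.00443%), while 946 had an unadjusted p under 0.05. Ifitm1, an interferon-induced membrane protein gene, read -3.94 and -3.60 in LSZ2 shSiva1 cells against -4.49, -4.16 and -3.73 in their controls. In LSZ4 it read 1.07 and 1.33 with shSiva1 against -3.15, -3.33, -2.96 and -2.24 in the controls. Its change was 0.36 in LSZ2 and 4.12 in LSZ4, a difference of 3.76 (SE 0.47, limma adjusted p = 0.0482). Plekhs1 moved in opposite directions, by 1.23 in LSZ2 (controls -3.88 to -3.37, shSiva1 -2.45 and -2.26) and by -2.17 in LSZ4 (controls -1.06 to -0.78, shSiva1 -2.94 and -3.26), a difference of -3.39 (SE 0.32, adjusted p = 0.00925). The transcript LOC100504561 changed by 0.96 in LSZ2 and 3.27 in LSZ4 (difference 2.31, SE 0.29, adjusted p = 0.0482). The count was 91 without LSZ4 shLacZ replicate 1, and 0 or 1 without either LSZ2 shLacZ array or any 1 of the 4 shSiva1 arrays.

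**Figure D4:**
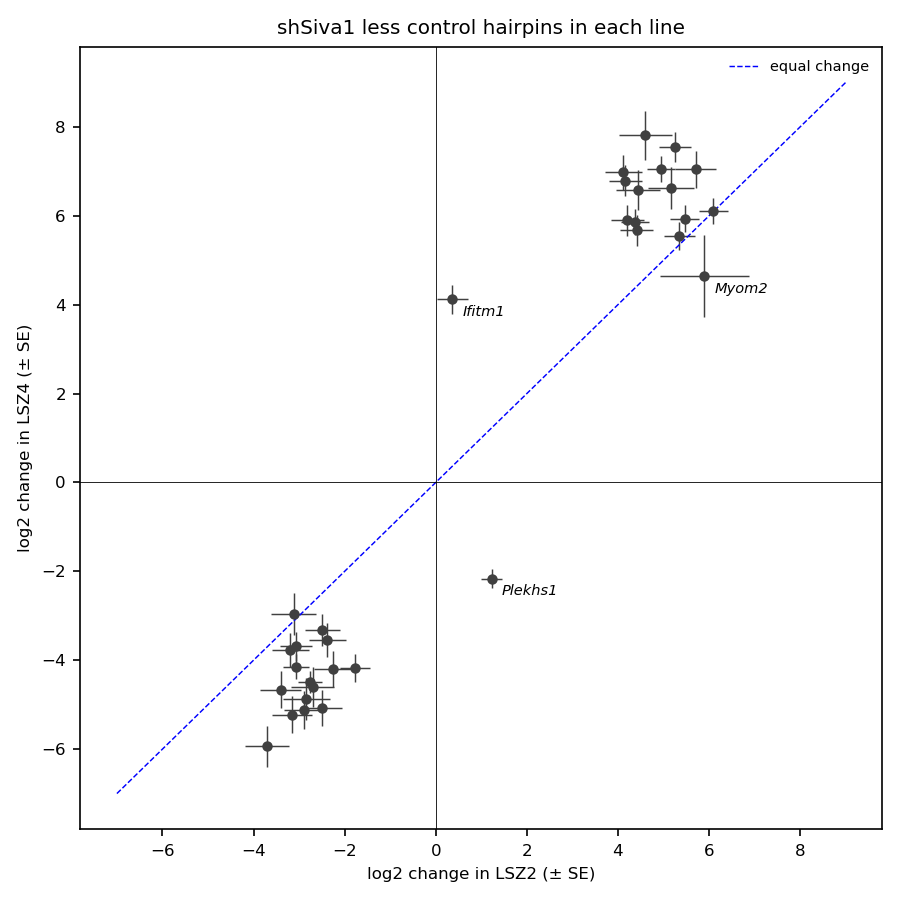
Change with shSiva1 in each line for Siva1, the 30 leading genes and 2 of the 3 genes that differed between lines. The axes are the log2 change in LSZ2 and in LSZ4, bars are SE and the dashed line marks equal change. Most of the 30 lie farther from 0 in LSZ4 than in LSZ2, and Ifitm1 and Plekhs1 lie off the line.

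Both control hairpins were also tested apart, since shGFP cells were selected in puromycin like shSiva1 cells and shLacZ cells were not. Against shGFP 5033 genes were called (22.3%), 1835 higher (8.13%) and 3198 lower (14.2%). Against shLacZ 2851 were called (12.6%), 1791 higher (7.94%) and 1060 lower (4.7%), and 2285 genes were called against both in the same direction. The shGFP count was 9563 without LSZ2 shGFP replicate 1, 2231 and 1965 without LSZ4 shGFP replicates 1 and 2, 2923 without LSZ2 shSiva1 replicate 1 and 2689 without LSZ4 shSiva1 replicate 1. Siva1 fell by 3.23 against shGFP and by 2.70 against shLacZ. All 30 leading genes were called against each control hairpin. They were picked for shSiva1 arrays beyond every shGFP and shLacZ array of their line, which favours such calls. Timp3 differed most in size between the control hairpins, with 7.10 against shGFP and 5.71 against shLacZ. The interferon gene Ifit3 rose by 4.50 and 4.79, and Degs2 fell by 5.31 and 4.56. Both tests share the shSiva1 arrays.

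The last question is which changes shSiva1 shares with shSiva2, the other hairpin against the same gene. Over the 8 shSiva arrays, which shared a slide and a vector, 4799 of 22570 genes differed between shSiva1 and shSiva2 (21.3%), 2365 higher with shSiva1 (10.5%) and 2434 lower (10.8%). Without LSZ2 shSiva1 replicate 1 the count was 3172. Of the 4294 genes called against control, 914 were also called with shSiva2 against control in the same direction and 309 in the opposite one. Both of these comparisons use the same control arrays, which favours the same direction. The share of all genes called with shSiva2 against control is not given here. These counts and those below for the leading genes thus lack a background share. Of the same 4294 genes, 2518 differed between the Siva hairpins. All of the 15 largest rises and of the 15 largest falls did. Timp3 was the only 1 of the 30 in which shSiva2 cells lay further from control. These 30 were picked for their large shSiva1 changes, and the direct test uses the same shSiva1 arrays, which favours both results. Against control, shSiva2 was called in the same direction for 3 of the 15 rises and 2 of the 15 falls. It was called in the opposite direction for 1 rise. Both Siva hairpins were compared with the same 7 control arrays, so the following values stand side by side. Krt17 read -7.0, -7.13, -6.73 and -5.76 on the shSiva2 arrays, within its control range of -7.48 to -5.38, where no control array measured it above background. Its shSiva1 arrays lay above them all, from -1.57 to 1.02 (limma adjusted p = 3.15e-06 for the direct test). Cd40 likewise read -7.12 to -6.45 with shSiva2 and -2.04 to -0.68 with shSiva1. Ccn4 read -6.49 to -3.38 with shSiva2 and -1.21 to -0.06 with shSiva1. No fold against control is given for these 3 genes beyond the bounds above. Timp3 changed by 6.29 with shSiva1 and 7.49 with shSiva2. Sdc3 went in opposite directions, 5.55 with shSiva1 and -2.33 with shSiva2. It had the largest direct difference of any gene with an ordinary symbol, 7.88 (SE 0.36, adjusted p = 2.29e-06). Sdc3 read -5.20, -5.22, -6.80 and -5.92 on the shSiva2 arrays and was above background on 4 of the 7 control arrays. Its sizes and rank thus rest partly on signals near background. The water channel gene Aqp1 had the next largest difference, 6.70 (SE 0.53), with changes of 2.65 and -4.08.

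Among the falls, Degs2 changed by -4.88 with shSiva1 and 0.86 with shSiva2, a direct difference of -5.70 (SE 0.60, adjusted p = 0.000164). Ly6d changed by -3.86 and 0.03, Il1rn by -3.68 and 0.39, and Ffar4 by -3.39 and -2.07. Cbr3, a carbonyl reductase gene, changed by -2.61 with shSiva1 and 2.06 with shSiva2. Depp1 and the glutathione transferase gene Gsta3 were among the largest differences chiefly through shSiva2, with changes of -1.40 and -0.58 with shSiva1 and 3.95 and 4.29 with shSiva2.

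The share of called list members that differed between the Siva hairpins varied among the lists, beside 2518 of 4294 over all called genes. It ran from 6 of 6 mesenchymal genes and 15 of 16 extracellular matrix and matricellular genes to 0 of 6 mitosis genes. Interferon genes gave 12 of 15 and p53 targets 3 of 9. No test compared these shares. In the interferon list Ifit3 changed by 4.67 with shSiva1 and 0.31 with shSiva2 and differed between them by 4.38 (SE 0.25, adjusted p = 5.58e-06), and Igtp changed by 3.31 and 1.14 (difference 2.16, SE 0.18). Ccl7 changed by 3.79 and -1.43, and Ccl2 by 3.06 and -0.05. Some genes showed no called difference. Psmb9 changed by 2.02 and 1.92 (difference 0.10, SE 0.21, adjusted p = 0.747), Gstm2 by 2.34 and 2.31 (0.02, SE 0.19), Gadd45a by 2.40 and 1.88 (0.51, SE 0.16, adjusted p = 0.053), Wipi1 by 1.14 and 1.14 and Grhl2 by -1.0 and -0.97. A p above the threshold does not show that both hairpins acted alike, and the SE of each difference gives its precision.

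**Figure D5:**
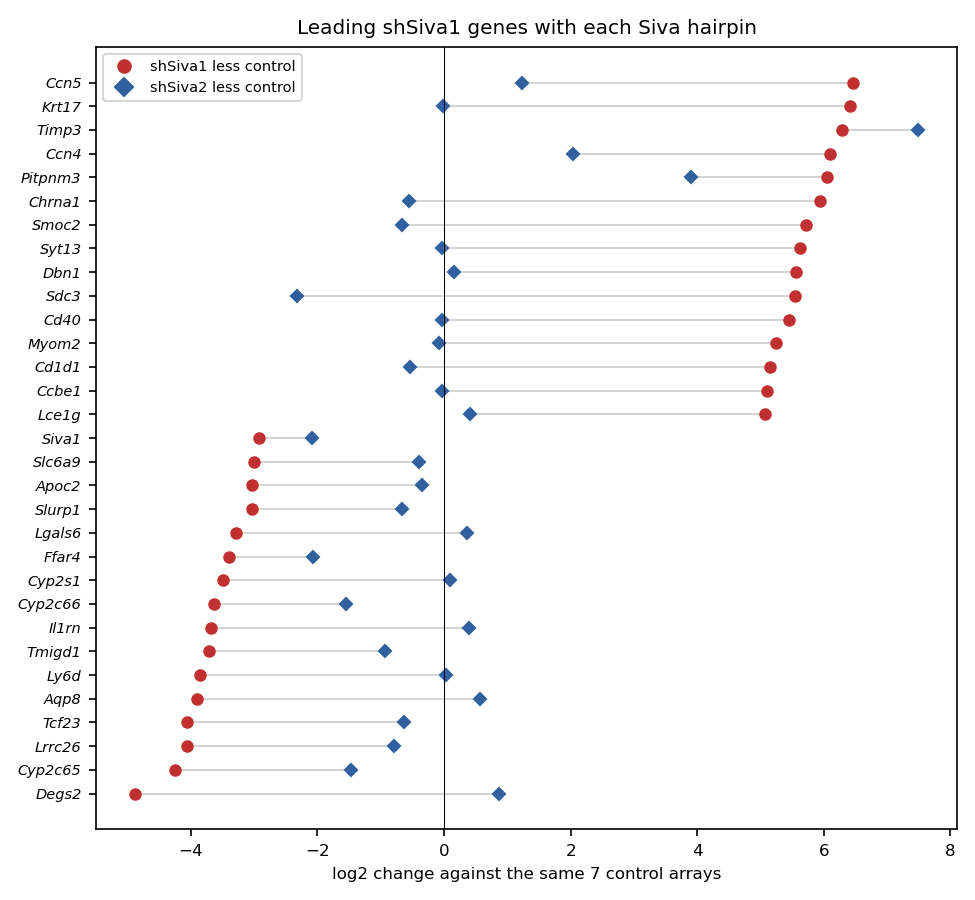
Change of Siva1 and the 30 leading shSiva1 genes with each Siva hairpin. The horizontal axis is the log2 change against the same 7 control arrays, circles are shSiva1 and diamonds shSiva2. Apart from Timp3, the shSiva2 value of each gene lies nearer to 0 or on the other side of it. The 30 genes were picked for their large shSiva1 changes, which favours this. Values of Ccn5, Krt17, Ccn4, Syt13, Dbn1 and Cd40 are fitted against controls at background and are not folds. Those of Sdc3 rest partly on signals near background.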

How the data were processed

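RNA of the 11 samples was hybridised to 1-colour Agilent mouse arrays. Per the file headers, the authors scanned them with Feature Extraction 10.7.3.1, which gave background-subtracted processed signal intensities per spot, with probe positions on mm9. From these intensities, spots of a probe were averaged without outlier-flagged spots, and log2 values were taken less the 75th percentile of each array. The deposited value table holds log2 values of the same arrays centred on each probe's median and served as an alternative. Probes had to be well above background on at least 4 of the 11 arrays and missing on at most 3, and the probe with the highest mean stood for a gene. Of 55681 probes, 26670 took their symbol from the RefSeq table through the accession and 29011 kept that of the file.

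Tests used limma 3.58.1 in R 4.3.3 (tables read by data.table, version 1.17.8) with cell line as a term, and p-values were adjusted by Benjamini-Hochberg over all 22570 genes. A gene above background on no control array has its rise as a bound, the mean of its 4 shSiva1 arrays against the dimmest signal that counted as well above background on each control array, or the gene's own signal where higher. The adjusted p of such a gene comes from the fit to its signals and does not test the bound. Named genes are Siva1, the 15 largest rises and 15 largest falls with ordinary symbols and arrays beyond every control of their line, the 3 members of lowest p in each of 25 gene lists, and the 4 largest rises and falls of the line difference and of shSiva1 against shSiva2. Other list members were picked after their values were seen, and some list members are not reported here. The comparison and the lists were chosen with earlier results of these data known. Alternatives covered scaling, background correction, filter, probe choice, blocks and each array left out. The fits were tested on simulated data. Columns of other samples numbered 0. The number of arrays limits the precision.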

Additional observations from a re-analysis of the deposited data

Results flagged for a closer look

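Among the 4 control arrays of LSZ4, Myom2 read -2.72 on LSZ4 shLacZ replicate 2 and between -6.95 and -6.44 on the other 3, a gap of 0.88 of the whole range. Of 37 genes checked in this way 1 was so far out, and chance alone gives about 1 in 20 such groups.

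The effect of shSiva1 differed between the lines, by the test of the difference itself, for 3 genes. The change in LSZ4 less that in LSZ2 was 3.76 for Ifitm1, 2.31 for LOC100504561 and -3.39 for Plekhs1.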

How the results depend on the processing

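Siva1 was called lower under all 23 alternatives, from -3.10 with normexp background correction to -2.65 without LSZ4 shSiva1 replicate 1 (from -3.08 to -2.65 with single arrays left out). The 30 leading genes, which were picked on these same arrays, were called under each alternative that gave a value. The 4294 calls against control became 2276 with normexp, 2366 with a random block for each line and hairpin, 2083 with 1 mean per line and hairpin, and 2708 to 7236 with single arrays left out. The share of calls that were higher was 47.8% as reported and ran from 33.5% without LSZ4 shLacZ replicate 1 to 66.2% with 1 mean per line and hairpin, with 39.5% for probes above background on all 11 arrays, 55.5% after scaling to the median of each array and 62.2% with the random block. The 3 genes that differed between lines became 24 with quantile normalization, 0 with normexp and 0 to 91 with single arrays left out. Against shGFP, 5033 calls became 1879 with normexp and 1965 to 9563 with single arrays left out. Against shLacZ, 2851 became 4429 with quantile normalization, 1333 with normexp and 1937 to 3456 with single arrays left out. Against shSiva2, 4799 became 2254 with normexp and 3172 to 4972 with single arrays left out. Of the 4294 reported calls, the sign turned for 171 with normexp, 7 with the mean of all probes, 2 with no filter and 1 with probes above background on all 11 arrays. Of the named genes, those reversed were Gsta3 (0.14 with normexp) and Acta2, which was not called (0.22 with normexp and 0.052 without both LSZ4 shGFP arrays, an alternative chosen after seeing the data). The cause was not tested.

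The labels do not say that replicate numbers mark a shared batch. The correlation of replicate 1 less 2 between groups was above 0 in all 10 pairs, from 0.024 to 0.745, and 1 pair fell below the 0.1 required of every pair to treat the numbers as pairing the samples. With the replicate number as a block, the calls numbered 5539 against control, 12 for the line difference, 11191 against shGFP, 4711 against shLacZ and 6403 against shSiva2, and Siva1 changed by -2.96.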
